A study of Mus musculus with 4 samples.

Results

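The 31 genes described here form the unfolded protein response of the endoplasmic reticulum (ER) and the integrated stress response. They were taken by symbol from a table of 55487 genes: 3 ER stress sensors, 3 transcription factors, 11 chaperones and lectins, 4 disulfide isomerases, 5 genes of ER-associated degradation and 5 targets of ATF4 and CHOP. All 31 were found, and all 31 passed the filter on low values. Their mRNA was measured by bulk RNA sequencing in adipocytes from perigonadal white adipose tissue (gWAT). All mice were males kept on standard diet. Adipocytes of CKO mice gave 2 libraries, and those of control littermates, labelled WT, gave the other 2. The series title concerns macrophages and BLIMP1, the repressor that Prdm1 encodes; the sources used here do not spell out CKO or give the driver of a deletion, the age of the mice or whether each library was 1 mouse.

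The ER folds and modifies proteins that a cell secretes or places in its membranes. When unfolded proteins build up, the membrane sensors ATF6, IRE1 and PERK respond: cleaved ATF6 and the spliced form of XBP1 switch on chaperone and degradation genes, and PERK phosphorylates eIF2alpha, which slows translation while favouring that of ATF4. PERK shares this last step with kinases that sense amino acid shortage, haem deficiency and viral RNA, and the joint pathway is called the integrated stress response. Adipocytes secrete large amounts of adipokines, and macrophages and plasma cells are also secretory cells with well-developed ER. XBP1 splicing, eIF2alpha phosphorylation and ATF6 cleavage are not visible in counts per gene.

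Most of the ER chaperones, isomerases and degradation genes were lower in the CKO libraries than in the WT libraries, while the transcription factor genes Xbp1 and Atf4 lay close together in the groups and the amino acid gene Asns lay on the other side. Of the 31 genes, 27 had a negative log2 change (CKO minus WT) and 4 a positive one, where 48.9% of all genes tested were negative. The median of the 31 was -0.63, against 0.015 over the 16871 genes tested. None of the 31 passed an adjusted p of 0.05 in limma (smallest adjusted p 0.459), and 0 of 16871 genes (0% higher and 0% lower) did so. At an unadjusted p under 0.05, 1 of the 31 was lower, Sdf2l1, against 7.26% of all genes tested, and 0 of the 31 were higher, against 3.35%; with unscaled values these shares of all genes were 5.07% and 5.09%. Both CKO libraries lay below both WT libraries for 16 of the 31, where 26.8% of all genes did so, and above them for 2, where 23.9% did.

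The direction rested in part on WT replicate 2, which stood apart from the other libraries. It was the highest library for 24 of the 31 genes, against 40.0% of all genes tested, and the lowest for 3, against 38.2%. As medians over the 31 of each gene's distance from its own mean, on the log2 scale, CKO replicates 1 and 2 were at -0.42 and -0.22, WT replicate 1 at -0.040 and WT replicate 2 at 0.65. Across genes, Pearson's r was 0.969 for the CKO pair of libraries, 0.939 for the WT pair, and 0.975 for CKO replicate 2 with WT replicate 1; genes are not independent replicates. Without WT replicate 2 the median of the 31 was -0.27, with 24 lower and 7 higher. At an unadjusted p under 0.05, 1 of the 31 (Sdf2l1) was then lower and 0 were higher, where 4.84% of all genes were lower and 1.61% higher. Both CKO libraries then lay below WT replicate 1 for 17 of the 31, where 36.2% of all genes did so. Without WT replicate 1 the median was -0.98, 17 were lower and 2 higher at an unadjusted p under 0.05, and Sdf2l1 and Trib3 passed the adjusted threshold in limma, with adjusted p of 0.0433 and 0.0490. In that fit 5.74% of all genes were lower and 5.04% higher past the adjusted threshold, so 2 of 31 was near the background; 17.2% were lower and 16.9% higher at an unadjusted p under 0.05, and the remaining WT library was taken to vary as the CKO pair does. Without CKO replicate 1, 0 of the 31 were at an unadjusted p under 0.05, where 1.09% of all genes were lower and 0.504% higher.

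**Figure D1:**
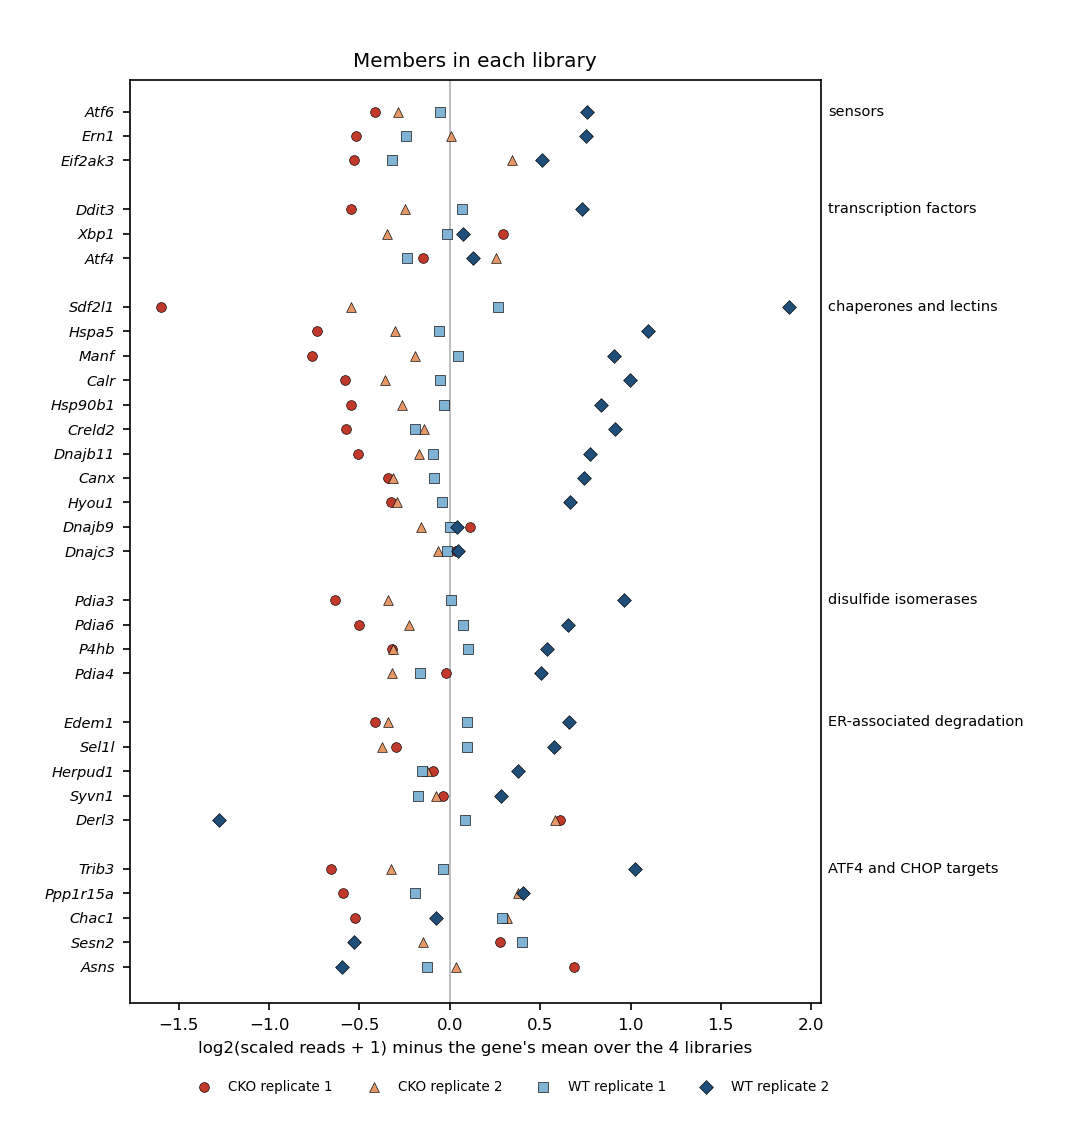
Each row is a gene and each symbol a library; the horizontal axis gives log2(scaled reads + 1) minus the gene's mean over the 4 libraries. WT replicate 2 is the rightmost symbol for 24 of the 31 genes and the leftmost for 3 (Derl3, Sesn2 and Asns).

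Totals of reads per library were 25260216 and 26742547 in CKO and 24152081 and 26145384 in WT. The labelled cell type was present by its markers: all 12 adipocyte markers, among them Adipoq and Plin1, were read in every library. Their summed level, in CPM (reads per 1000000 reads of the library), was 55040 and 36611 in CKO and 31363 and 8742 in WT. Of the 12, 11 were higher in CKO, 5 of them without overlap, against 23.9% of all genes tested. Adipoq and Plin1 were among those that overlapped. Lep was lower in CKO without overlap, with 13415 and 23666 reads in CKO and 57746 and 25207 in WT. The 13 macrophage markers, among them Adgre1 and Cd68, summed to 1722 and 3824 CPM in CKO and 7569 and 20765 in WT. All 13 were lower in both CKO libraries than in both WT libraries, where 26.8% of all genes tested were. The 8 endothelial markers summed to 2637 and 4028 in CKO and 2309 and 737 in WT. All 8 were higher in CKO and 6 without overlap, against 23.9% of all genes tested. The 5 red blood cell markers summed to 746 and 1247 in CKO and 362 and 118 in WT. The 8 fibroblast markers summed to 843 and 1004 in CKO and 1398 and 1624 in WT. Of these 8, 7 were lower in CKO and 1 higher. Both CKO libraries lay below both WT libraries for 5 of the 8, against 26.8% of all genes tested. The 4 smooth muscle and pericyte markers summed to 361 and 585 in CKO and 480 and 163 in WT, the 6 mesothelial ones to 14.4 and 9.05 in CKO and 12.01 and 5.70 in WT, and the 6 T and NK cell ones to 1.39 and 2.84 in CKO and 6.71 and 2.52 in WT. The 8 B and plasma cell markers summed to 286 and 709 in CKO and 1214 and 864 in WT; of the 7 tested, 3 were lower in CKO and 4 higher. Among the plasma cell genes, Sdc1 had 422 and 1562 reads in CKO and 2974 and 8872 in WT, and Tnfrsf17 had 8 and 5 in CKO and 21 and 18 in WT. Jchain had 50 and 130 reads in CKO and 76 and 32 in WT, and Mzb1 had 0 and 1 in CKO and 0 and 0 in WT. Prdm1 had 152 and 386 reads in CKO and 514 and 1135 in WT (log2 change -1.79, SE 0.59, limma adjusted p 0.459). The part of the gene that a deletion would remove is not given, so this level does not check the labels. The 31 genes together summed to 4404 and 5048 CPM in CKO and 5639 and 8632 in WT. The libraries thus stood in 1 order for the 31 genes, the macrophage markers and the fibroblast markers. They stood in the opposite order for the adipocyte markers. The part of macrophage or fibroblast RNA in the differences described here was not tested. In such bulk samples, fewer cells of a type and less RNA per cell cannot be told apart.

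**Figure D2:**
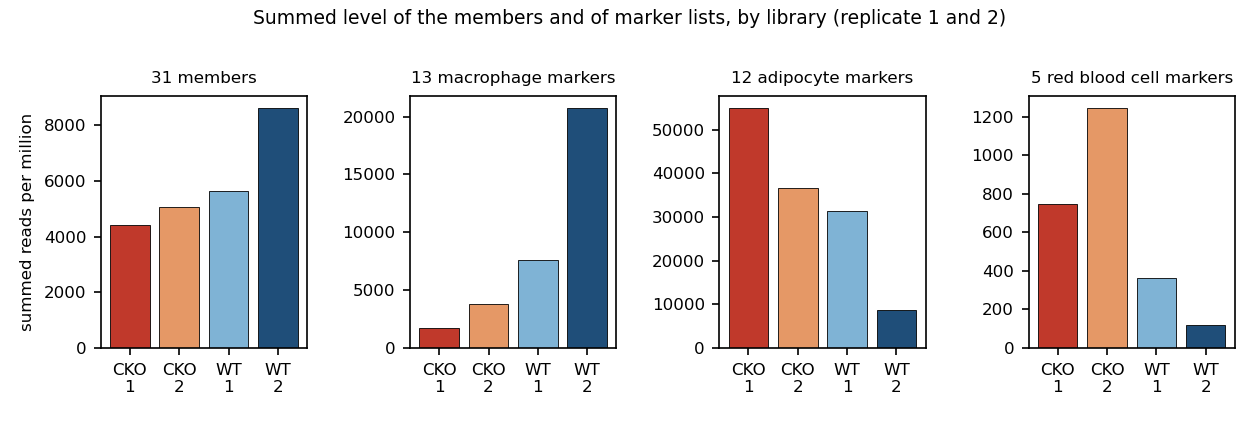
Bars give the summed level, in CPM, of the 31 genes, the 13 macrophage markers, the 12 adipocyte markers and the 5 red blood cell markers in each library. The 31 genes run from 4404 in CKO replicate 1 to 8632 in WT replicate 2, the macrophage markers from 1722 to 20765 and the adipocyte markers the other way, from 55040 to 8742.

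Per length, the 31 genes spanned a wide range. Levels are given as RPKM, reads per 1000 bases of annotated exon and per 1000000 reads of the library, as mean ± SD with n = 2. Hspa5, which encodes the main ER Hsp70 chaperone BiP, was highest by its mean over the 4 libraries, at 151 ± 36.0 in CKO and 307 ± 148 in WT. P4hb, Pdia3 and Calr followed, at 152 ± 4.90, 123 ± 21.3 and 117 ± 16.4 in CKO, against 223 ± 33.3, 236 ± 93.1 and 222 ± 96.4 in WT. These 4 neighbours in the order did not differ beyond their spread in WT. In CKO, P4hb lay above Pdia3 and Calr in both libraries. The sensors were far lower, at 5.56 ± 0.52 in CKO and 8.76 ± 2.87 in WT for Atf6, 3.47 ± 1.54 and 3.65 ± 1.23 for Eif2ak3, and 1.51 ± 0.43 and 2.09 ± 0.86 for Ern1. Derl3 was the lowest member, at 1.15 ± 0.022 in CKO and 0.529 ± 0.368 in WT.

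Of the sensor genes, Atf6 differed most between the groups, and none passed the adjusted threshold. Atf6 encodes a membrane-anchored transcription factor released by cleavage in the Golgi. It lies on the minus strand of chromosome 1 of GRCm38, from 170704674 to 170867771. It had 1210 and 1463 reads in CKO and 1501 and 2604 in WT, so the groups did not overlap, with a log2 change of -0.70 (SE 0.34, limma adjusted p 0.460). Ern1, on chromosome 11 (106394650 to 106487852, minus strand), encodes IRE1, the kinase and RNase that splices Xbp1 mRNA. It had 249 and 398 reads in CKO and 292 and 576 in WT, and the groups overlapped (log2 change -0.51, SE 0.44, limma adjusted p 0.613). Eif2ak3, on chromosome 6 (70844515 to 70905245, plus strand), encodes PERK. It had 362 and 735 reads in CKO and 404 and 712 in WT, where replicate 1 was the lower library in each group (log2 change -0.19, SE 0.45, limma adjusted p 0.861). The median of the 3 was -0.51, and was -1.02 without WT replicate 1, -0.027 without WT replicate 2, -0.26 without CKO replicate 1 and -0.77 without CKO replicate 2. Eif2ak3 was higher in CKO without WT replicate 2 (0.22) and without CKO replicate 1 (0.24).

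The transcription factor genes did not share a direction. Ddit3 encodes CHOP, the factor of prolonged ER stress that lies downstream of PERK and ATF4. It lies on chromosome 10 (127290774 to 127296288, plus strand), where it overlaps Mars on the opposite strand. Ddit3 had 472 and 643 reads in CKO and 699 and 1092 in WT. Both CKO values were below both WT values (log2 change -0.80, SE 0.32, limma adjusted p 0.459). Xbp1, on chromosome 11 (5520659 to 5525893, plus strand), encodes the factor whose mRNA IRE1 splices. It had 9537 and 6763 reads in CKO and 7414 and 7801 in WT, so the WT values lay between the CKO values. Its log2 change was -0.055 (SE 0.34, 95% interval -0.94 to 0.83, limma adjusted p 0.951), an interval that leaves room for changes of nearly 2-fold in either direction. Its sign was positive with unscaled values (0.079), with scaling by total reads (0.030), with quantile normalisation (0.055) and without CKO replicate 2 (0.26). Atf4, on chromosome 15 (80255184 to 80257541, plus strand), is regulated largely at the level of translation. It had 3792 and 5549 reads in CKO and 3448 and 4378 in WT, and the groups overlapped (log2 change 0.11, SE 0.29, limma adjusted p 0.881; -0.098 without CKO replicate 2 and -0.081 without WT replicate 1).

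**Figure D3:**
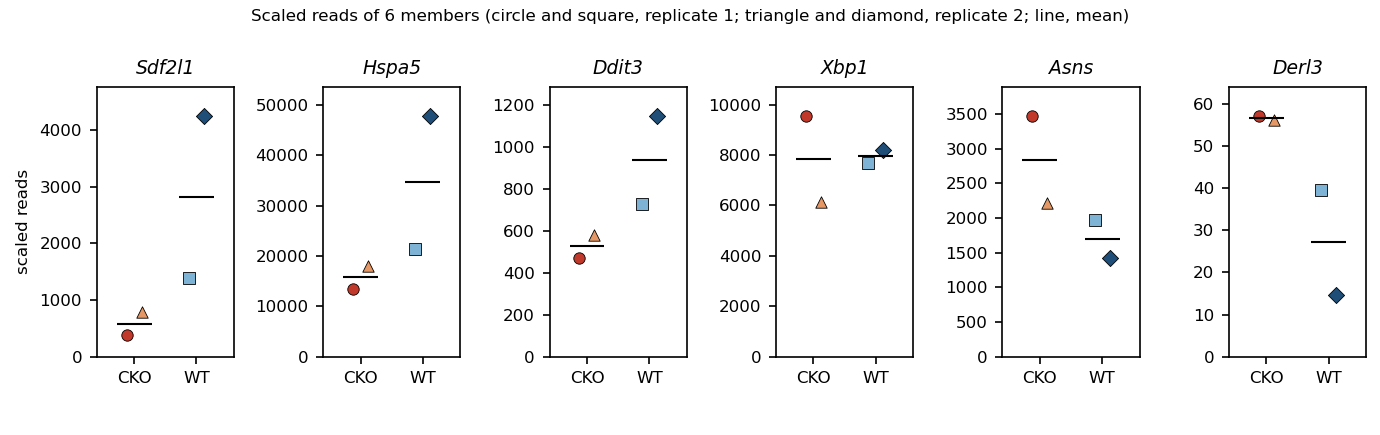
Scaled reads of Sdf2l1, Hspa5, Ddit3, Xbp1, Asns and Derl3 in each library, CKO left and WT right, with the group mean as a line and each axis starting at 0. The groups do not overlap for Sdf2l1, Hspa5 and Ddit3 (CKO lower) or for Asns and Derl3 (CKO higher), and overlap for Xbp1.

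All 11 chaperone and lectin genes were lower in CKO, by a median of -0.72. Both CKO libraries lay below both WT libraries for 8 of the 11, where 26.8% of all genes did so. Sdf2l1 differed most of all 31 genes. It encodes a small ER protein that acts with the co-chaperone ERdj3 and BiP, and it lies on chromosome 16, on the minus strand between 17130138 and 17132383. Its reads numbered 380 and 871 in CKO and 1339 and 4042 in WT. Each WT library was above each CKO library, and WT replicate 2 had about 3 times the reads of WT replicate 1. Scaled reads averaged 585 ± 289 in CKO, against 2820 ± 2022 in WT (SD, n = 2 each). On the log2 scale the change was -2.15 (SE 0.65, 95% interval -3.83 to -0.47). The unadjusted p in limma's fit over all genes was 0.0219 and the adjusted p 0.459. The change was -1.35 without WT replicate 2 (unadjusted p 0.0282 in limma), -2.96 without WT replicate 1, -2.67 without CKO replicate 2 and -1.63 without CKO replicate 1 (unadjusted p 0.0922 in limma).

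Hspa5, on chromosome 2 (34771970 to 34777547, plus strand), had 13415 and 19968 reads in CKO and 20661 and 45469 in WT. Both WT libraries were above both CKO libraries, though CKO replicate 2 and WT replicate 1 were close. Scaled reads averaged 15763 ± 3287 in CKO, against 34631 ± 18635 in WT (SD, n = 2 each). The log2 change of -1.04 (SE 0.56, limma adjusted p 0.479) was -0.47 without WT replicate 2 and -1.62 without WT replicate 1. Manf, on chromosome 9 (106838312 to 106891979, minus strand), encodes a secreted ER stress protein that binds BiP. It had 697 and 1146 reads in CKO and 1178 and 2112 in WT (log2 change -0.95, SE 0.39, limma adjusted p 0.459). The groups did not overlap by a small margin, and the change was -0.53 without WT replicate 2. The lectin chaperone genes Calr and Canx, which hold newly made glycoproteins, were at -0.94 and -0.66, and Hsp90b1, the ER Hsp90, was at -0.81. Hyou1, a large Hsp70-like chaperone, was at -0.62, the co-chaperone gene Dnajb11, which encodes ERdj3, at -0.68 and Creld2, a secreted ER stress protein, at -0.72. The last did not separate the groups, with 653 and 975 reads in CKO and 823 and 1750 in WT.

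A pair of chaperone genes stood near 0. Dnajb9 encodes ERdj4, a co-chaperone that in mouse cells is induced through XBP1 and restrains IRE1. It had 1112 and 1020 reads in CKO and 995 and 1009 in WT, so that the groups overlapped once scaled. Dnajc3, which encodes p58IPK, an ER co-chaperone of BiP, had 4197 and 4331 reads in CKO and 3911 and 4035 in WT, which also overlapped once scaled. Their log2 changes were -0.045 (95% interval -0.65 to 0.56) and -0.031 (-0.65 to 0.59), and both turned positive with unscaled values (0.088 and 0.10), with scaling by total reads (0.039 and 0.053), with quantile normalisation (0.038 and 0.091) and without CKO replicate 2 (0.087 and 0.016). For the 11 genes the median was -0.27 if WT replicate 2 was left out and -1.25 if WT replicate 1 was.

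Promoters of 28 of the 31 genes, from 250 bases before to 50 bases after the start site, were matched in the RefSeq table for GRCm38.p6; Atf6, Hyou1 and Manf were not matched. The ER stress response element (ERSE), known as the site at which ATF6 acts with the CCAAT factor NF-Y, was searched on both strands as CCAAT followed by any 9 bases and CCACG. It was found in 9 of the 28 promoters (32.1%) and in 39 of the 32851 promoters of the table (0.119%). The 28 belong to a list drawn up as genes of this response. A share above that of all promoters, here and for the sequences searched below, is thus no result of these libraries. The matches are shown because the element recurs among the chaperone genes. Outside them it was found in the isomerase gene Pdia6 and in the degradation genes Syvn1 and Derl3. Each is written 5′ to 3′ on the strand that carries the element, with the element in capitals and 10 bases on each side.
Hspa5, chr2:34772015-34772053 (plus strand): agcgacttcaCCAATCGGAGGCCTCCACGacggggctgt
Hsp90b1, chr10:86705523-86705561 (plus strand): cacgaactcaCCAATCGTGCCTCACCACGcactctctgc
Hsp90b1, chr10:86705628-86705666 (minus strand): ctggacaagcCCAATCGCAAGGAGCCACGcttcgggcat
Calr, chr8:84847065-84847103 (plus strand): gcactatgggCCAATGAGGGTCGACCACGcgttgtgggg
Canx, chr11:50325790-50325828 (minus strand): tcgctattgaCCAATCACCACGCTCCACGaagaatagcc
Creld2, chr15:88819510-88819548 (minus strand): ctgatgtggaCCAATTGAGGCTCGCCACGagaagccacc
Dnajc3, chr14:118937817-118937855 (plus strand): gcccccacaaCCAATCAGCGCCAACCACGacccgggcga
Pdia6, chr12:17266481-17266519 (plus strand): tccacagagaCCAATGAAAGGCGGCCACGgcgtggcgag
Syvn1, chr19:6046522-6046560 (plus strand): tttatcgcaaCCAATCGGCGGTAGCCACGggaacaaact
Derl3, chr10:75893232-75893270 (minus strand): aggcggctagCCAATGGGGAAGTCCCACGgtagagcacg
Of these 9 genes, 8 were lower in CKO and 1, Derl3, higher, with a median log2 change of -0.72 and a range from -1.04 to 1.19. Of the 19 genes whose promoter had no match, 16 were lower and 3 higher (median -0.34, range -2.15 to 0.73). Both CKO libraries lay below both WT libraries for 5 of the 9 and 8 of the 19, where 26.8% of all genes did so. The ERSE of Hspa5 lies 65 to 47 bases before the start site. A second form, ERSE-II, was searched on both strands as ATTGG, any 1 base and CCACG, and was found in 2 of the 28 promoters, against 0.0365% of all promoters of the table. TGACGTGG, a core bound by XBP1 and ATF6, was found in 0 of the 28, against 0.676%. The ERSE-II matches are written in the same way.
Dnajb11, chr16:22857842-22857872 (plus strand): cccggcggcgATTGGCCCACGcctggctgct
Herpud1, chr8:94386367-94386397 (plus strand): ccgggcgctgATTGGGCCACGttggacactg

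The promoters of Hspa5 and Sdf2l1 are given whole, for the most abundant of the 31 genes and the one with the largest difference. In Hspa5, chr2:34771840-34772139 on the plus strand, capitals mark the ERSE. In Sdf2l1, chr16:17132334-17132633 on the minus strand, no ERSE or ERSE-II match was found, and capitals mark the 4 copies of CCAAT and 3 copies of CCACG, on either strand.
Hspa5: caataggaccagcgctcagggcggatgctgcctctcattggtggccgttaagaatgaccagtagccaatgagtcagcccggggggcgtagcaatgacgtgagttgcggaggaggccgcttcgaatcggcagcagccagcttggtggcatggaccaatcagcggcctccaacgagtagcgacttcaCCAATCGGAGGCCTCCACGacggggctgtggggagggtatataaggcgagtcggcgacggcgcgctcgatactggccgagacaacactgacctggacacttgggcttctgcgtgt
Sdf2l1: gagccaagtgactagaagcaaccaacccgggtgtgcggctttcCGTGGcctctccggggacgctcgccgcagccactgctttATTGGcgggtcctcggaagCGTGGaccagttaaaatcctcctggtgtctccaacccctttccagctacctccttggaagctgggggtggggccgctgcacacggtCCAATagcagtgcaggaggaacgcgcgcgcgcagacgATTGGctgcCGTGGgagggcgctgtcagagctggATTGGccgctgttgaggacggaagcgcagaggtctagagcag
The separate letters are common, since CCAAT was in 37.4% and CCACG in 32.8% of all promoters of the table. Each was in 23 of the 28 promoters of the members (82.1%). A match is a description of the sequence, and no match says only that these letters are not in this window.

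All 4 disulfide isomerase genes, whose products form and rearrange disulfide bonds in the ER, were lower in CKO, with a median of -0.68 (-0.44 without WT replicate 2). Pdia3, on chromosome 2 (121413775 to 121438687, plus strand), acts on glycoproteins held by calnexin and calreticulin. It had 8587 and 11625 reads in CKO and 12922 and 24789 in WT, without overlap (log2 change -0.97, SE 0.46, limma adjusted p 0.459; -0.51 without WT replicate 2). Pdia6, on chromosome 12 (17266545 to 17284770, plus strand), also binds IRE1 in the ER. It had 5707 and 7664 reads in CKO and 8221 and 12139 in WT, again without overlap (log2 change -0.73, SE 0.35, limma adjusted p 0.459). P4hb, on chromosome 11 (120560298 to 120573253, minus strand), encodes the archetypal isomerase PDI, which is also a subunit of the collagen prolyl hydroxylase. It had 10725 and 11885 reads in CKO and 13810 and 18469 in WT. Its scaled reads were 10755 ± 15.1 in CKO, nearly the same in both libraries, and 16880 ± 3592 in WT (SD, n = 2 each), and on the log2 scale the change was -0.63 (SE 0.36, limma adjusted p 0.486). Pdia4 had 4351 and 3901 reads in CKO and 3800 and 5952 in WT, with overlap (log2 change -0.34).

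The genes of ER-associated degradation, which returns misfolded proteins to the cytosol for the proteasome, differed among themselves. Edem1, on chromosome 6 (108828641 to 108859356, plus strand), helps to route misfolded glycoproteins to degradation. It had 3850 and 4471 reads in CKO and 5271 and 7725 in WT (log2 change -0.75, SE 0.31, limma adjusted p 0.459; -0.48 without WT replicate 2). Sel1l, on chromosome 12 (91806043 to 91849157, minus strand), is the partner of the ubiquitin ligase HRD1. It had 4318 and 4530 reads in CKO and 5471 and 7558 in WT (log2 change -0.67, SE 0.29, limma adjusted p 0.459; -0.44 without WT replicate 2). For both genes the CKO libraries were close together and below both WT libraries. Syvn1, which encodes HRD1 itself, had 1522 and 1638 reads in CKO and 1333 and 1812 in WT (log2 change -0.11), and was positive with unscaled values (0.023) and without WT replicate 2 (0.11). Herpud1, on chromosome 8 (94386438 to 94395377, plus strand), encodes a membrane protein of the same ligase complex. It had 3024 and 3266 reads in CKO and 2794 and 3985 in WT, with overlap (log2 change -0.22, SE 0.28, limma adjusted p 0.729; 0.034 without WT replicate 2). The median of the 5 genes was -0.22, and was 0.034 without WT replicate 2 and -0.49 without WT replicate 1.

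Derl3, a derlin best known from secretory cells such as plasma cells, was higher in CKO. It lies on chromosome 10 (75893413 to 75895941, plus strand) and had 57 and 62 reads in CKO and 38 and 14 in WT, the fewest reads of the 31. Both CKO libraries were above both WT libraries (log2 change 1.19, SE 0.62, limma adjusted p 0.472; 0.50 without WT replicate 2 and 1.87 without WT replicate 1). It was singled out after its values were seen. Of the plasma cell genes, Sdc1 and Tnfrsf17 were lower in both CKO libraries, Jchain overlapped and Mzb1 was at or near 0; the part of such cells in the Derl3 level was not tested.

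**Figure D4:**
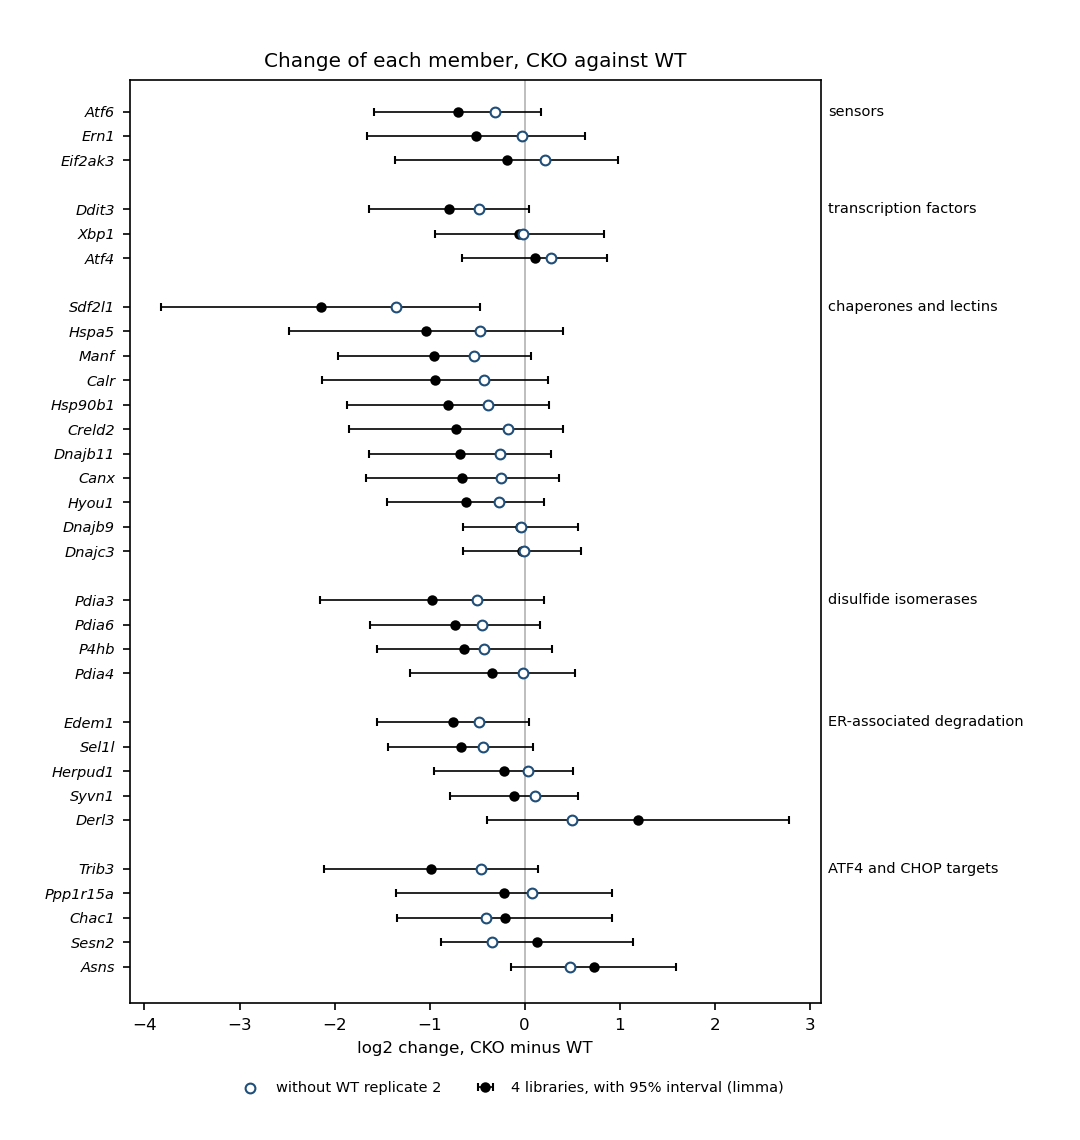
Filled points give each gene's log2 change, CKO minus WT, over the 4 libraries with limma's 95% interval, and open points the change without WT replicate 2, ordered by size within each role. The interval of Sdf2l1 alone lies wholly on one side of 0 (-3.83 to -0.47), and without WT replicate 2 the changes of 24 of the 31 genes are negative.

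The targets of ATF4 and CHOP did not share a direction: 3 were lower in CKO and 2 higher, with a median of -0.21 that was 0.20 without CKO replicate 1, -0.63 without CKO replicate 2, -0.035 without WT replicate 1 and -0.34 without WT replicate 2. Trib3, on chromosome 2 (152337422 to 152344032, minus strand), encodes a pseudokinase that is induced by CHOP and ATF4 and restrains AKT. It had 260 and 363 reads in CKO and 386 and 799 in WT. The groups did not overlap, with a log2 change of -0.99 (SE 0.44, limma adjusted p 0.459) that was -0.46 without WT replicate 2 and -1.52 without WT replicate 1. Asns, on chromosome 6 (7675169 to 7693254, minus strand), encodes asparagine synthetase. It had 3466 and 2440 reads in CKO and 1900 and 1353 in WT. Here CKO replicate 1 was highest and WT replicate 2 lowest, the reverse of the order for Trib3 (log2 change 0.73, SE 0.34, limma adjusted p 0.459; 0.48 without WT replicate 2, and at an unadjusted p of 0.0441 in limma with unscaled values). In Asns and Trib3, both targets of ATF4, the differences thus had opposite signs.

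The other targets gave groups that overlapped. Ppp1r15a, on chromosome 7 (45522916 to 45526268, minus strand), encodes GADD34, which directs the phosphatase that reverses eIF2alpha phosphorylation. It had 3542 and 7643 reads in CKO and 4504 and 6728 in WT, with the libraries of each group further apart than the group means (log2 change -0.21, SE 0.44, limma adjusted p 0.835; 0.26 without CKO replicate 1 and 0.073 without WT replicate 2). Once scaled, Ppp1r15a was highest in WT replicate 2 and lowest in CKO replicate 1. The cytosolic heat shock genes differed among themselves. Hsph1 had 613 and 3294 reads in CKO and 1875 and 2692 in WT, with CKO replicate 1 far below the rest. Dnajb1 had 4028 and 7657 reads in CKO and 3168 and 2000 in WT. CKO replicate 2 stood far apart for Hspa1a, which had 615 and 10700 reads in CKO and 717 and 1261 in WT. Its near-identical copy Hspa1b, with which it may share reads, had 595 and 12204 in CKO and 471 and 694 in WT, and the 10 immediate early and heat shock genes listed as marks of handling summed to 10345 and 16138 CPM in CKO and 10477 and 9765 in WT. The part of sample handling in the Ppp1r15a level was not tested. Chac1, a glutathione-degrading enzyme, had 105 and 209 reads in CKO and 179 and 137 in WT (log2 change -0.21; 0.20 without CKO replicate 1). Sesn2, a stress-induced inhibitor of mTORC1 signalling, had 1962 and 1616 reads in CKO and 2059 and 1069 in WT (log2 change 0.13; -0.34 without WT replicate 2 and -0.091 without CKO replicate 1).

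The site at which ATF4 pairs with C/EBP proteins, searched as TGATGNAAN on both strands, was found in 4 of the 28 promoters, against 3.95% of all promoters of the table. The list held ATF4 targets by choice, so this share too is no result of these libraries. The matches are printed because Asns and Trib3 both carry one while their differences run in opposite directions. Capitals mark the element.
Asns, chr6:7693214-7693242 (minus strand): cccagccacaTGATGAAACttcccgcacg
Chac1, chr2:119351038-119351066 (minus strand): ctggcaggagTGATGCAACggcagggaag
Trib3, chr2:152344029-152344057 (plus strand): cccgcccggcTGATGTAAAcctgagctaa
Herpud1, chr8:94386306-94386334 (minus strand): gggtgcgggcTGATGCAACccgccgtggt
In Asns the element lies 23 to 15 bases before the start site, and its promoter (chr6:7693160-7693459, minus strand) is given whole with the element in capitals.
Asns: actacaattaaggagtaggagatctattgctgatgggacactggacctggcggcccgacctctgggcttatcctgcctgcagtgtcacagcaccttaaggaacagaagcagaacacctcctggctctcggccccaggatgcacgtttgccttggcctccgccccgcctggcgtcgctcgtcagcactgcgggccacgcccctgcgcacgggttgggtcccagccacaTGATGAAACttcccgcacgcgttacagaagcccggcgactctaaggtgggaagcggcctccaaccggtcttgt

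Of 111 other genes of the pathway, 110 were tested, 77 lower in CKO and 33 higher, where 48.9% of all genes tested were lower. Their median log2 change was -0.13, against 0.015 over all genes. None passed the adjusted threshold in limma. At an unadjusted p under 0.05, 1 was lower (7.26% of all genes were) and 0 were higher (3.35% were). Both CKO libraries lay below both WT libraries for 38 of the 110, against 26.8% of all genes, and above them for 5, against 23.9%.

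The folding and translocation genes had the lowest median of the 5 classes: of 30, 26 were lower, with a median of -0.37, and 15 had both CKO libraries below both WT libraries, against 26.8% of all genes. The oxidase gene Ero1lb, which recharges disulfide isomerases, had 283 and 329 reads in CKO and 396 and 919 in WT (log2 change -1.11). The chaperone gene Erp29 and the cargo receptor gene Tmed10 were at -0.90 and -0.62. Of 20 other degradation genes, 13 were lower and 7 higher (median -0.082). Edem2, a relative of Edem1 that trims mannose from misfolded glycoproteins, was the gene below an unadjusted p of 0.05, with 1096 and 1411 reads in CKO and 1598 and 2705 in WT (log2 change -0.87, SE 0.34, unadjusted p 0.0486 and adjusted p 0.459 in limma). It did not stay below that level with no filter, a minimum of 6, unscaled values, total reads, quantile normalisation, no trend, the robust fit or without CKO replicate 1. The ligase gene March6 and the derlin gene Derl2 were at -0.61 and -0.56.

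Other sensors and factors were mixed. Of 11 tested, 6 were lower and 5 higher. The membrane-bound factor genes Creb3l1, Creb3 and Creb3l3 were at -0.71, -0.41 and -1.24, the last with 8 and 33 reads in CKO and 19 and 70 in WT. Ern2, which encodes the epithelial form of IRE1, did not pass the filter, with 0 and 2 reads in CKO and 0 and 0 in WT. Of 11 genes for eIF2alpha, its kinases, its phosphatases and its exchange factor, 8 were lower and 3 higher (median -0.080). Eif2s1, which encodes eIF2alpha, was at -0.46, the exchange factor subunit gene Eif2b3 at 0.44 and the haem-regulated kinase gene Eif2ak1 at -0.34.

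Of 38 further genes of the ATF4 programme, 24 were lower and 14 higher (median -0.12), and both CKO libraries lay below both WT libraries for 12 and above them for 0, where 26.8% and 23.9% of all genes did so; 12 of 38 is near that background. Aldh18a1, a proline synthesis enzyme, had 303 and 375 reads in CKO and 422 and 894 in WT, without overlap. The cystine transporter gene Slc7a11 had 33 and 158 reads in CKO and 208 and 211 in WT (log2 change -1.65), where the WT libraries were close and the CKO libraries far apart. The amino acid transporter gene Slc7a5 had 161 and 185 reads in CKO and 215 and 603 in WT (log2 change -1.19). None of these 3 passed the adjusted threshold in limma, with an adjusted p of 0.459 each.

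Of the 31 genes, 11 overlap an annotated gene on the opposite strand, among them Ddit3, Manf, Pdia3, Pdia6, Hsp90b1 and Ppp1r15a. The sources used here do not give the strand setting of the counting, so reads of such partners cannot be told apart. A second row with the symbol Ddit3 held 0 reads in every library and was not used.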

How the data were processed

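The members and gene lists were chosen with earlier results of these data known. Per the labels' protocols, TRIzol and RNeasy kits were used for the RNA. The submitters' processing notes name STAR 2.7.5c and GRCm38.p6; the sources used here give no counting tool, annotation or strand setting. The values deposited by the authors are on a log2 scale. Raised as powers of 2, less 1, they gave whole numbers (within 0.01) for 100% of genes in all 4 libraries, so these log2 values are log2(reads + 1) with no scaling between libraries, although they are deposited as normalised. Of the 55487 identifiers, 55094 (99.3%) matched GENCODE M21 with their version, which gave coordinates, exon lengths and overlaps. A symbol on several rows was taken from the row of highest mean.

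Reads were recovered by rounding and divided by size factors, the median ratio to the geometric mean over 19847 genes (0.998 and 1.10 in CKO, 0.963 and 0.951 in WT), and a pseudocount of 1 was added before taking log2, which understates fold changes of low genes. The 16871 genes whose deposited log2 values averaged 3 or more were fitted with limma 3.58.1 in R 4.3.3 (trend, two-sided, group alone), with Benjamini-Hochberg adjustment over all of them; there were 2 residual degrees of freedom. No count model was run, because the deposited unit is log2. An exact permutation test of 2 against 2 libraries, two-sided, cannot go below p = 0.333, and limma alone was used for single genes. Since the labels do not tie libraries to separate animals, p-values reflect the spread of these libraries, which may be technical. Every member is accounted for; reads in every library are given for sensors and transcription factors, for the 2 genes of smallest unadjusted p and the gene of highest RPKM in each other role, and for genes described further. Of the other pathway genes, the 3 of smallest unadjusted p in each class are named. Alternatives were no filter, a minimum of 6, a pseudocount of 10, no scaling, scaling by total reads, quantile normalisation, voom weights, no trend, a robust fit, library weights and each library left out in turn. For counts of genes whose groups did not overlap, the alternatives were chosen after seeing the data.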

Additional observations from a re-analysis of the deposited data

How the results depend on the processing

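No paired analysis was possible because the labels number no replicates, so no CKO library has a WT partner. With 2 libraries a group, 1 library can decide a value. With one library left out, the genes called over the whole table ranged from 0 to 1820, the members at an unadjusted p under 0.05 from 0 to 17 (lower in CKO) and 0 to 2 (higher), and the other pathway genes from 0 to 25 (lower) and 0 to 9 (higher), where 1.09% to 17.2% of all genes were lower and 0.504% to 16.9% higher. Members with both CKO libraries above both WT libraries ranged from 3 to 5 (2 with all libraries), where 32.9% to 42.7% of all genes did so, and below them from 17 to 24 (16 with all), where 36.2% to 43.6% did; fewer libraries leave fewer values that can overlap. Medians by role ranged from -1.25 to -0.27 (chaperones), -0.49 to 0.034 (degradation), -0.38 to -0.020 (transcription factors) and -0.63 to 0.20 (ATF4 and CHOP targets). Without scaling, the median of all genes was 0.15 and that of the members -0.50, and 23 members were lower and 8 higher. In that setting 1 member (Asns) was higher at an unadjusted p under 0.05 in limma, where 5.09% of all genes were. Both CKO libraries were then above both WT libraries for 4 members, where 33.5% of all genes did so. The transcription factor median was 0.079 without scaling and 0.055 with quantile normalisation. The degradation median was -0.45 with a minimum of 6, which leaves out Derl3. The other pathway gene at an unadjusted p under 0.05 (1) became 0 with no filter, a minimum of 6, no scaling, total reads, quantile normalisation, no trend and the robust fit, and 4 with library weights; the cause was not tested.

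Of 433 values of single members under these alternatives, 409 kept their direction. The 24 that did not belong to 10 genes, and the cause was not tested. With no scaling, total reads and quantile normalisation they were 0.088, 0.039 and 0.038 for Dnajb9, 0.10, 0.053 and 0.091 for Dnajc3, and 0.079, 0.030 and 0.055 for Xbp1, and Syvn1 was 0.023 with no scaling. Leaving out a library gave ranges of -0.098 to 0.30 for Atf4, -0.63 to 0.20 for Chac1, -0.19 to 0.087 for Dnajb9, -0.090 to 0.016 for Dnajc3, -0.63 to 0.24 for Eif2ak3, -0.49 to 0.034 for Herpud1, -0.70 to 0.26 for Ppp1r15a, -0.34 to 0.59 for Sesn2, -0.35 to 0.11 for Syvn1, -0.38 to 0.26 for Xbp1. Derl3 rests on 14 to 62 reads in a library.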
